A study of Mus musculus with 10 samples.

Results

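The genes described here are 41 genes of inflammation: acute phase and mucosal defence proteins, chemokines, cytokines, colony-stimulating factors, and transcription factors, inhibitors and targets of the NF-κB pathway. They were given by name as a list by role, drawn up with earlier results of these data known. All 41 were in the table of 54152 lines, and 35 reached a mean of at least 1 FPKM (reads relative to exon length and to the size of the library) in at least 1 group and were tested among 15817 such genes. The other 6 were Saa1, Saa2, Ptx3, S100a8, Il1b and Il6. Cxcl10 and S100a9 reached the minimum only in PgrKO groups and Ccl5 only in an AdKO group, so that for these genes the group that is high is also the reason for testing them.

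Epithelial cells line the oviduct and are its first barrier to microbes. In many epithelia, Toll-like receptors and the receptors of IL-1 and TNF activate NF-κB, which is held in the cytoplasm by inhibitors such as IκBα, the product of Nfkbia, and NF-κB then drives genes for chemokines, cytokines and acute phase proteins. CXC chemokines such as those of Cxcl1, Cxcl2 and Cxcl5 attract neutrophils, and the CC chemokine of Ccl2 attracts monocytes. Colony-stimulating factors support the production and survival of macrophages and granulocytes.

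The 10 RNA-seq libraries came from organoids that were grown in Matrigel from the epithelium of the mouse oviductal isthmus. All carried Cdc42 alleles with loxP sites (Cdc42 f/f), and Cdc42 encodes a small GTPase. The genotype labels of F/F_Con 2, F/F_Diff 1 and F/F_Diff 2 name Cdc43, Cdc44 and Cdc45 instead, but the tissue labels of all libraries name Cdc42, which was taken as the gene. F/F organoids came from Cdc42 f/f mice without Cre. PgrKO organoids came from PgrCre/+ Cdc42 f/f mice, in which Cre is expressed from the progesterone receptor gene. To make AdKO organoids, F/F cultures were infected in vitro with Ad5-CMV-Cre, an adenovirus that carries Cre. Con organoids were undifferentiated, and Diff organoids received estrogen (E2, 10 nM) and the Notch inhibitor DBZ (1 μM) for 6 days to induce multiciliated cells. Each state of F/F and of PgrKO was sequenced in 2 libraries and each state of AdKO in 1. The ages of the mice that gave the organoids were not stated separately, and nothing states that replicates came from separate mice or cultures, so that p-values measure the spread between these libraries, which may be technical. Among these 10 libraries there is no Cre without loxP sites and no virus without Cre, so the Cre allele or the infection cannot be told apart from the loss of Cdc42.

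Some libraries stood apart and touch the results below. One was F/F_Diff 2: among the 35 genes tested, 27 (77.1%) had their lowest value of all 10 libraries there, against 16.9% of all genes tested, and 1 (2.86%) had its highest, against 17.9%. The PgrKO libraries, in turn, had high levels of markers of other cell types. The summed level of 12 macrophage and leukocyte markers was 19.6 to 35.8 FPKM in the 4 F/F libraries, 168 and 118 in PgrKO_Con 1 and PgrKO_Diff 1, 1106 and 1491 in PgrKO_Con 2 and PgrKO_Diff 2, and 30.9 and 17.5 in AdKO_Con and AdKO_Diff. Adgre1, which encodes the macrophage antigen F4/80, was at 1.43, 29.1, 0.873 and 116 FPKM in PgrKO_Con 1, PgrKO_Con 2, PgrKO_Diff 1 and PgrKO_Diff 2, at most 0.38 in F/F and 0 in both AdKO libraries. The sum of 10 fibroblast markers was 4.78 to 23.9 FPKM in F/F, 110 to 391 in PgrKO and 19.5 to 36.8 in AdKO, and that of 5 endothelial markers was 0.342 to 1.59, 9.73 to 34.3 and 0.498 to 2.88. Nearly all of the AdKO fibroblast sums came from Fbln1, at 36.5 FPKM in AdKO_Con and 19.0 in AdKO_Diff. Neutrophil markers summed to at most 9.32 FPKM and lymphocyte markers to at most 0.231 in any library. All 8 epithelial markers were above 1 FPKM in every library, with sums of 2427 to 5703. Cdc42 itself was at 118 to 133 FPKM in F/F, 104 to 134 in PgrKO and 81.6 and 87.9 in AdKO, and a value per gene does not show whether the floxed exon 2 was lost.

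**Figure D1:**
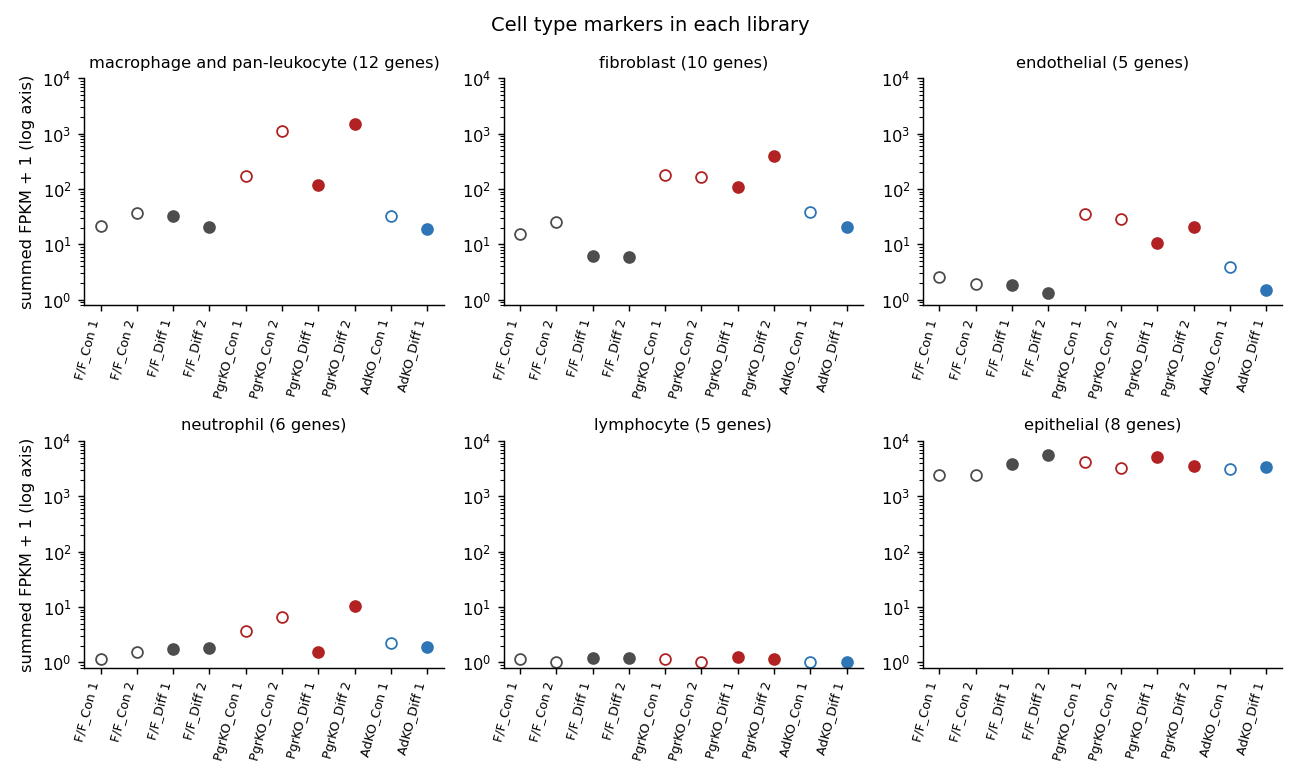
Summed FPKM plus 1 of cell type markers (y axis, log scale) in each library (x axis), 1 panel per cell type. Grey points are F/F, red PgrKO and blue AdKO, open points Con and filled points Diff. Macrophage and leukocyte markers are highest in PgrKO_Con 2 (1106 FPKM) and PgrKO_Diff 2 (1491 FPKM), and the AdKO libraries are within or near the range of F/F.

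The genes of the list with the highest levels in any library, Hp and Lcn2, encode secreted proteins. Lcn2, which encodes lipocalin 2, a protein that binds bacterial siderophores, was at 1839 and 1308 FPKM (Con) and 1907 and 381 (Diff) in F/F, and 1618 and 1613 (Con) and 1600 and 1111 (Diff) in PgrKO, 2183 in AdKO_Con and 1465 in AdKO_Diff. It ranked between 8 and 49 among the 15817 genes in every library, and F/F_Diff 2 was far below the other libraries. Lcn2 did not pass the test in any comparison. Hp, which encodes the hemoglobin-binding acute phase protein haptoglobin, ranked between 8 and 137. At the other end, Saa2 had no read in any library, Saa1, a close copy of it, had at most 2 reads, Ptx3 at most 7 and Il6 at most 8, so no difference in them was detectable at the depth of these libraries, which held 11745729 to 17331800 reads recovered from the FPKM values. Il6, the classical acute phase inducer, was at 0.115 and 0.0297 FPKM (Con) and 0.141 and 0 (Diff) in F/F, and 0.174 and 0.232 (Con) and 0.0259 and 0.141 (Diff) in PgrKO and 0 in both AdKO libraries. Il1b was at 0 to 1.36 FPKM and S100a8 at 0 to 1.32.

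**Figure D2:**
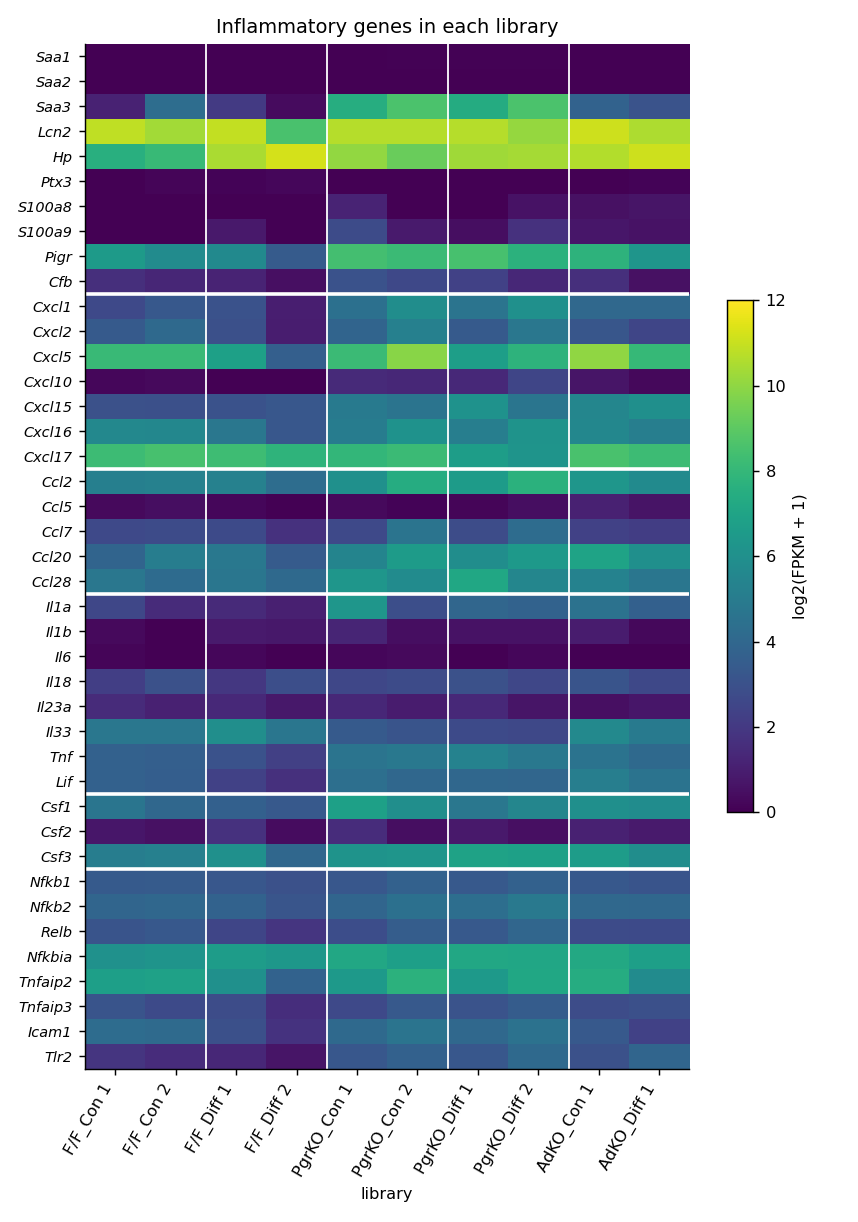
Levels of the 41 genes as log2(FPKM + 1) (color) in the 10 libraries (columns). White lines divide the groups of genes by role and the groups of libraries, except AdKO_Con and AdKO_Diff, which share the last block. Lcn2 and Hp are the most abundant, Saa3 is bright only in PgrKO, and F/F_Diff 2 is dark in most rows.

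To ask how loss of Cdc42 in the oviduct bears on these genes, PgrKO organoids were compared with F/F organoids on the log2(FPKM + 1) scale, which understates the differences of genes near or under 1 FPKM. Over both states, with 4 libraries against 4, 17 of the 35 genes were higher in PgrKO and 2 were lower at a Benjamini-Hochberg adjusted p under 0.05 from limma. Among all genes tested, 13.7% were called higher and 16% lower. Same-numbered PgrKO_Con and PgrKO_Diff libraries deviated together from their group means (r = 0.53 across genes, which are not independent replicates), whereas the p-values treat the 4 PgrKO libraries as independent. The median difference of the 35 was 1.17, with 31 above 0, and that of all genes was 0.01, with 50.7% above 0. All 4 PgrKO libraries were above all 4 F/F libraries for 15 of the 35 genes, against 13% of all genes, and below them for Il33 alone, against 10.3%. In Diff organoids, 14 were higher and 2 lower, against 11.7% and 15.4% of all genes, with a median of 1.64. The counts of higher genes and of genes without overlap include Cxcl10, which was tested only because of its PgrKO levels. In Con organoids, none passed, against 0.266% of all genes called higher and 0.354% lower, while 30 of 35 differences were above 0 and the median was 0.88. In that comparison limma gave 16 of the 35 an unadjusted p under 0.05, against 3461 of 15817 genes. The 16 include Cxcl10 and S100a9, which were both tested only because of their PgrKO levels. The medians of the 35 and the counts above 0 include both genes too. Voom, a form of limma for counts, was run on reads recovered from the FPKM values. It called none of the list and 34 of all genes.

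These counts rested in part on single libraries. Over both states, 19 genes were called with all libraries, 11 without F/F_Con 1, 10 without F/F_Con 2, 12 without F/F_Diff 2 and 13 to 18 without any of the others. Calls over all genes fell as well, from 4685 to 2936, 2755 and 2637 without these 3 libraries and to between 2507 and 4545 without the others. In Diff organoids, 16 were called with all libraries, 10 without F/F_Con 1 or F/F_Con 2, 7 without F/F_Diff 2, 9 without PgrKO_Diff 2 and 14 to 17 otherwise, while calls over all genes went from 4289 to 3445, 3460, 1740 and 2755 without these 4 libraries and to between 2750 and 3928 otherwise. In Con organoids, 23 of 35 differences were above 0 without PgrKO_Con 2. Without F/F_Diff 2 the median difference of the 35 genes was 0.88 over both states and 0.84 in Diff organoids, with 29 of 35 above 0 in both. Without PgrKO_Con 2 and PgrKO_Diff 2, the libraries with the highest macrophage markers, each PgrKO group kept 1 library. The median of the 35 genes was then 0.83 over both states and 1.35 in Diff organoids. Of the genes called over both states with all libraries, Saa3, Pigr, Cxcl1, Cxcl17, Ccl2, Ccl20, Icam1 and Csf3 did not pass. Most of those called in Diff organoids did not pass either. Fits without PgrKO_Con 2 tested 37 genes of the list, so their counts are not of the same 35. Of the macrophage and leukocyte markers, 7 of 12 were higher over both states, of the fibroblast markers 8 of 9 tested and of the endothelial markers 2 of 4 tested. Among all genes tested, 13.7% were higher. Most of these markers, such as C1qa, Adgre1, Tyrobp, Dcn, Pdgfrb and Pecam1, reached the filter only in PgrKO groups. For them the group that is high is also the reason for testing them, so these counts are a description only. Fewer cells of a type and less RNA per cell cannot be told apart in such samples, and the part of other cell types in the results was not tested. Of the 18 called genes other than Cxcl10, 7 passed in every alternative run: Cxcl15, Il33, Tnf, Nfkbia, Csf1, Lif and Tlr2. Cxcl10 is left out of this count, since it was tested only because of its PgrKO levels and not at all under the filter at 5 FPKM.

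**Figure D3:**
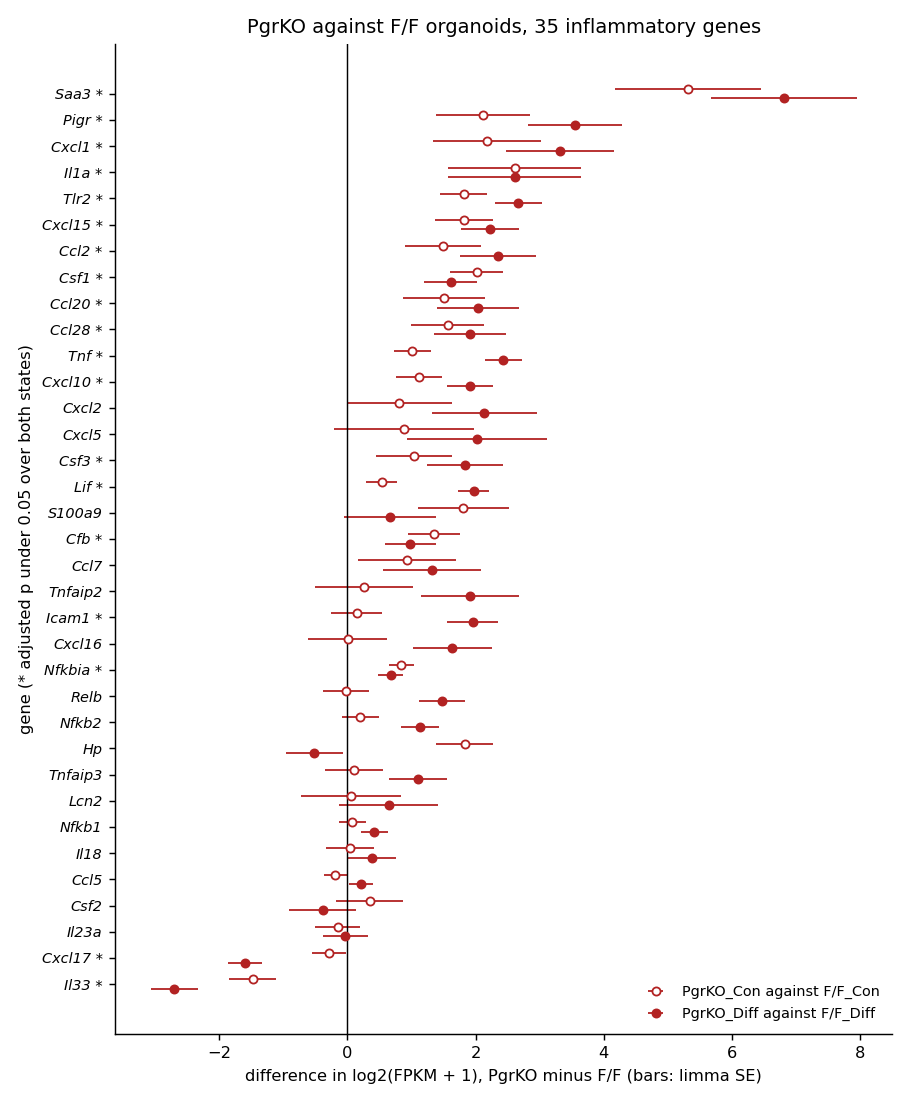
Difference in log2(FPKM + 1) between PgrKO and F/F (x axis) for the 35 genes tested (y axis, ordered by the difference over both states), in Con (open) and Diff (filled) organoids, with 2 libraries per group. Bars are standard errors from limma, and asterisks mark the 19 genes called over both states. Saa3 has the largest difference (5.31 in Con and 6.82 in Diff) and Il33 the most negative (-1.48 and -2.70).

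Among acute phase and mucosal defence genes, Saa3, Pigr and Cfb were higher in PgrKO over both states, and the other 3 tested, Lcn2, Hp and S100a9, did not pass. Saa3 encodes serum amyloid A3, an acute phase protein that many tissues make outside the liver in mice. Its level was 1.22 and 18.6 FPKM (Con) and 3.15 and 0.26 (Diff) in F/F, and 175 and 391 (Con) and 168 and 392 (Diff) in PgrKO. Every PgrKO library was above every F/F library, and replicate 2 was the higher of the PgrKO libraries in both states. The difference over both states was 6.07 (standard error 0.81, adjusted p = 0.00613), and in Diff organoids 6.82 (1.14, adjusted p = 0.00946). Without F/F_Diff 2 the Diff difference did not pass (adjusted p = 0.0639), and without PgrKO_Con 2 and PgrKO_Diff 2 neither did the difference over both states, at 5.47 (adjusted p = 0.0506). Pigr encodes the receptor that carries polymeric immunoglobulins across epithelia. It was at 92.1 and 54.2 FPKM (Con) and 51.2 and 9.85 (Diff) in F/F, and 335 and 288 (Con) and 365 and 211 (Diff) in PgrKO. The groups did not overlap, and replicate 1 was the higher PgrKO library in both states, unlike Saa3. The difference was 2.83 (standard error 0.52, adjusted p = 0.013) over both states and 3.55 (0.73, adjusted p = 0.0182) in Diff organoids. The first did not pass without F/F_Con 2 (adjusted p = 0.0505), and the second did not pass without PgrKO_Diff 1 or PgrKO_Diff 2 (highest adjusted p = 0.07). Without both PgrKO replicate 2 libraries the difference over both states was 3.09 and did not pass (adjusted p = 0.0687). Cfb, which encodes complement factor B, was at 2.08 and 1.48 FPKM (Con) and 1.31 and 0.415 (Diff) in F/F, and 7.21 and 5.04 (Con) and 4.02 and 1.54 (Diff) in PgrKO. PgrKO_Diff 2 lay within the F/F range. Over both states the difference was 1.17 (standard error 0.28, adjusted p = 0.0281), and it did not pass without F/F_Con 1, F/F_Con 2, F/F_Diff 2, PgrKO_Con 1 or PgrKO_Con 2 (highest adjusted p = 0.0942). The model Gm20547 shares 79.5% of the exon bases of Cfb on the same strand, so its level is uncertain.

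**Figure D4:**
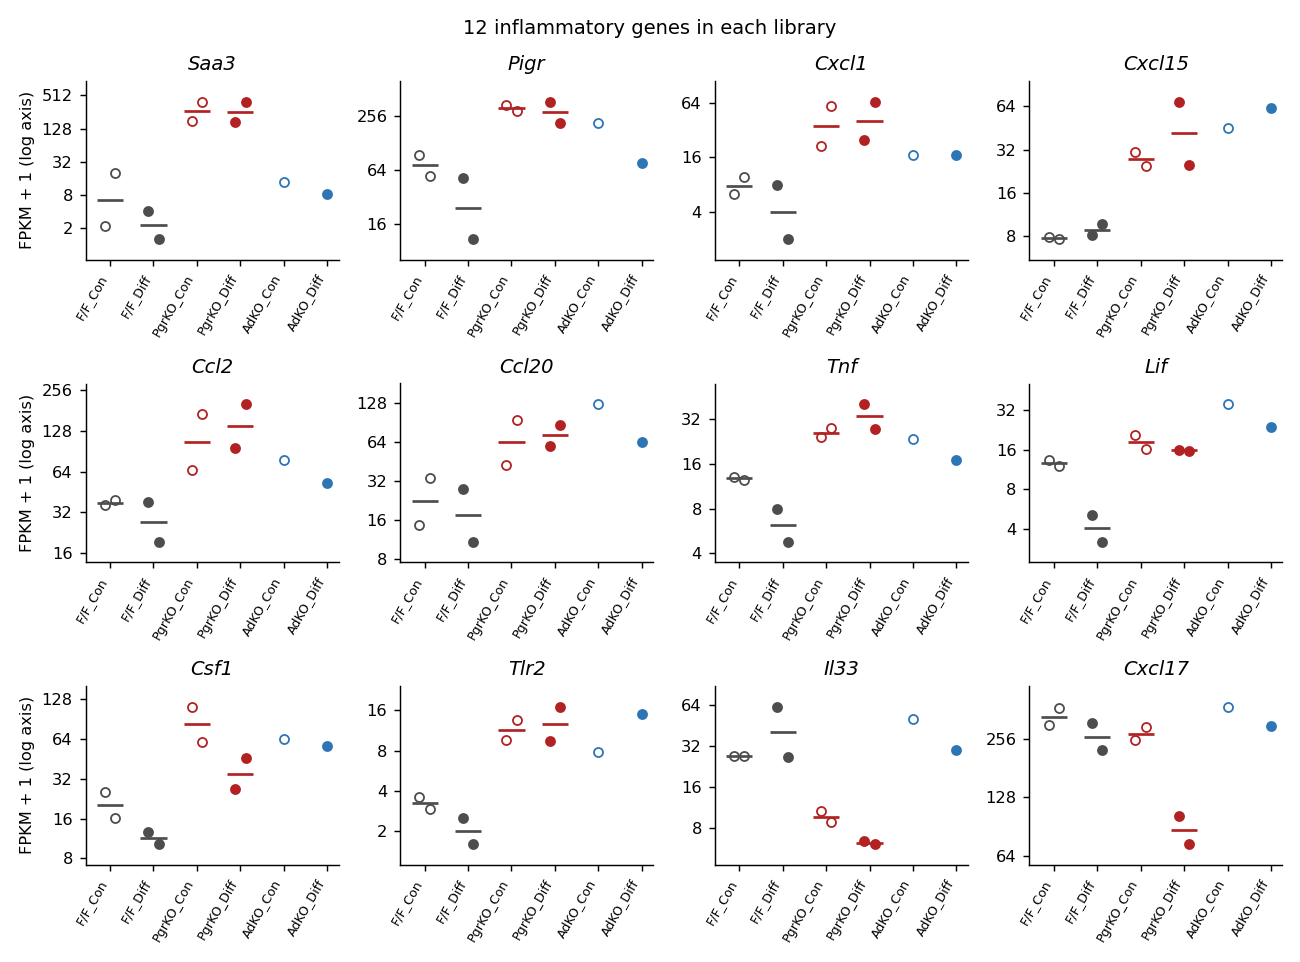
Levels of 12 genes as FPKM plus 1 (y axis, log scale) in each library by group (x axis). Points are single libraries, open for Con and filled for Diff, and lines are means of log2 values of 2 libraries, with none for the single AdKO libraries. Il33 is the only gene of the 12 whose PgrKO libraries all lie below all F/F libraries (5.09 to 9.67 against 25.6 to 60.8 FPKM).

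Of the 7 CXC chemokines, all tested, Cxcl1, Cxcl10 and Cxcl15 were higher in PgrKO over both states and Cxcl17 was lower. The same 4 genes were called in Diff organoids. Cxcl1, a neutrophil attractant, was at 5.27 and 8.81 FPKM (Con) and 7 and 1.02 (Diff) in F/F, and 20.3 and 57.9 (Con) and 23.6 and 64.6 (Diff) in PgrKO. All PgrKO libraries were above all F/F libraries. The difference over both states was 2.75 (standard error 0.60, adjusted p = 0.0204). It did not pass without F/F_Con 1, F/F_Con 2, F/F_Diff 2, PgrKO_Con 2 or PgrKO_Diff 2 (highest adjusted p = 0.0685), nor without both PgrKO replicate 2 libraries (2.03, adjusted p = 0.113). In Diff organoids it was 3.32 (0.84, adjusted p = 0.0338), which did not pass without F/F_Con 1, F/F_Con 2, F/F_Diff 2 or PgrKO_Diff 2 (highest adjusted p = 0.149). Cxcl15, known in mice as lungkine, was at 6.93 and 6.61 FPKM (Con) and 7.17 and 8.67 (Diff) in F/F, and 29.7 and 23.5 (Con) and 68 and 24 (Diff) in PgrKO. The F/F libraries lay close together and below every PgrKO library, and PgrKO_Diff 1 was highest. The difference was 2.02 (standard error 0.32, adjusted p = 0.00868) over both states and 2.23 (0.45, adjusted p = 0.0164) in Diff organoids, and without both PgrKO replicate 2 libraries it was 2.47 over both states (adjusted p = 0.0147). The Diff difference did not pass without F/F_Diff 1 or F/F_Diff 2 (highest adjusted p = 0.0814). Cxcl10, an interferon-induced attractant of T cells, was at 0.149 and 0.224 FPKM (Con) and 0.0304 and 0 (Diff) in F/F, and 1.65 and 1.5 (Con) and 1.59 and 4.66 (Diff) in PgrKO. This is 0 to 7 reads in F/F and 48 to 123 in PgrKO. Over both states the difference was 1.52 (standard error 0.25, adjusted p = 0.00983), and in Diff organoids it was 1.92 (0.35, adjusted p = 0.0128), which did not pass without F/F_Diff 1 or F/F_Diff 2 (highest adjusted p = 0.0711).

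Cxcl17, which encodes a chemokine of mucosal epithelia, went the other way. It was at 298 and 367 FPKM (Con) and 305 and 223 (Diff) in F/F, and 249 and 293 (Con) and 101 and 72.6 (Diff) in PgrKO. Only the PgrKO_Diff libraries lay outside the F/F range. In Diff organoids the difference was -1.59 (standard error 0.26, adjusted p = 0.00931), called in all 8 fits without 1 library, but not without both PgrKO replicate 2 libraries (-1.35, adjusted p = 0.0657). Over both states it was -0.94 (0.19, adjusted p = 0.0161), which did not pass without F/F_Con 2, F/F_Diff 1 or PgrKO_Con 1 (highest adjusted p = 0.0586), nor without both PgrKO replicate 2 libraries (-0.88, adjusted p = 0.067). The remaining CXC genes did not pass in either state. Cxcl5 was at 279 and 282 FPKM (Con) and 113 and 11.3 (Diff) in F/F, and 289 and 927 (Con) and 105 and 216 (Diff) in PgrKO. Cxcl16, which encodes a membrane-bound chemokine, was at 47.8 and 45.8, 26.1 and 8.63, 32.1 and 68.2, and 33.8 and 71.6 FPKM in the same order. Cxcl2 was at 9.37 and 16.0, 6.61 and 0.924, 13.7 and 36.1, and 9.62 and 25.8. For these 3 genes, replicate 2 was above replicate 1 in PgrKO, and the 4 PgrKO libraries overlapped with the 4 F/F libraries. Cxcl5, Cxcl15, Cxcl1 and Cxcl2 lie within 146.6 kb of chromosome 5 (chr5:90759360-90905938, mm10), and Cxcl15 and Cxcl1 passed while Cxcl5 and Cxcl2 did not.

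Of the 5 CC chemokines, Ccl2, Ccl20 and Ccl28 were higher in PgrKO over both states, and Ccl5 and Ccl7 did not pass. Ccl2, a monocyte attractant, was at 35.1 and 38.2 FPKM (Con) and 37.1 and 18.4 (Diff) in F/F, and 64.5 and 170 (Con) and 94.0 and 201 (Diff) in PgrKO. Every PgrKO library was above every F/F library, with replicate 2 the higher in both states. The difference over both states was 1.92 (standard error 0.42, adjusted p = 0.0203), which did not pass without F/F_Con 1, F/F_Con 2, F/F_Diff 2 or PgrKO_Diff 2 (highest adjusted p = 0.0688) or without both PgrKO replicate 2 libraries (1.30, adjusted p = 0.0687). In Diff organoids alone it was 2.35 (0.59, adjusted p = 0.0324), which did not pass without any 1 of the F/F libraries or without PgrKO_Diff 2 (highest adjusted p = 0.161). Ccl20, an epithelial chemokine that acts on CCR6, was at 13.8 and 32.8 FPKM (Con) and 27.0 and 9.94 (Diff) in F/F, and 42.0 and 93.7 (Con) and 58.5 and 86.2 (Diff) in PgrKO. The groups did not overlap, and the difference was 1.78 (standard error 0.45, adjusted p = 0.0321). It did not pass without F/F_Con 1, F/F_Diff 2, PgrKO_Con 2, PgrKO_Diff 1 or PgrKO_Diff 2 (highest adjusted p = 0.092), and without both PgrKO replicate 2 libraries it was 1.35 (adjusted p = 0.176). Ccl28, a mucosal chemokine, was at 25.8 and 17.5 FPKM (Con) and 25.4 and 16.4 (Diff) in F/F, and 78.4 and 53.7 (Con) and 143 and 44.1 (Diff) in PgrKO. Here replicate 1 was the higher PgrKO library in both states. Over both states the difference was 1.74 (standard error 0.40, adjusted p = 0.0238), 2.29 without both PgrKO replicate 2 libraries (adjusted p = 0.0221), and did not pass without any 1 of the F/F libraries or without PgrKO_Con 1 (highest adjusted p = 0.0849). Ccl7, another monocyte attractant, spans 11.96 kb of chromosome 11 together with Ccl2 (chr11:82035571-82047525). It was at 2.23 to 5.67 FPKM in F/F, 5.26 and 5.96 in the PgrKO replicate 1 libraries and 23.8 and 17.7 in the replicate 2 libraries, so that only the latter stood out.

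Among the cytokines, Tnf, Il1a and Lif were higher in PgrKO over both states and Il33 was lower, and Il18 and Il23a did not pass. Tnf encodes tumor necrosis factor. It was at 12.2 and 11.5 FPKM (Con) and 7.01 and 3.80 (Diff) in F/F, and 23.2 and 26.8 (Con) and 39.5 and 26.7 (Diff) in PgrKO. The groups did not overlap in either state. The difference was 1.72 (standard error 0.20, adjusted p = 0.00512) over both states and 2.43 (0.29, adjusted p = 0.00392) in Diff organoids. Without both PgrKO replicate 2 libraries it was 1.81 over both states (adjusted p = 0.0264). Lif encodes leukemia inhibitory factor, a cytokine of the IL-6 family. Its level was 12.4 and 10.9 FPKM (Con) and 4.07 and 2.18 (Diff) in F/F, and 19.5 and 15.3 (Con) and 14.9 and 14.7 (Diff) in PgrKO. The F/F_Diff libraries were the lowest and all PgrKO libraries were above all F/F libraries. The difference was 1.25 (standard error 0.17, adjusted p = 0.00641) over both states and 1.97 (0.24, adjusted p = 0.00416) in Diff organoids.

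Il1a encodes the alarmin IL-1α. It was at 4.78 and 1.75 FPKM (Con) and 1.70 and 1.09 (Diff) in F/F, and 78.3 and 6.50 (Con) and 14.4 and 12.6 (Diff) in PgrKO. The groups did not overlap, but the PgrKO_Con libraries differed from each other more than PgrKO_Con 2 did from F/F. The difference over both states was 2.61 (standard error 0.73, adjusted p = 0.0425). It passed without PgrKO_Con 1 or PgrKO_Con 2 and failed to pass when any other of the 8 libraries was left out (highest adjusted p = 0.133). Il1b, which together with Il1a spans 71.5 kb of chromosome 2 (chr2:129299610-129371139), was not tested. Il33 encodes another alarmin of the IL-1 family, one of epithelial and stromal nuclei. It was at 26.0 and 26.1 FPKM (Con) and 60.8 and 25.6 (Diff) in F/F, and 9.67 and 7.81 (Con) and 5.40 and 5.09 (Diff) in PgrKO. Every PgrKO library was below every F/F library. The difference was -2.09 (standard error 0.26, adjusted p = 0.00553) over both states, called in every alternative, and -2.70 (0.37, adjusted p = 0.00544) in Diff organoids, where it did not pass without both PgrKO replicate 2 libraries (-2.66, adjusted p = 0.0586).

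Of the colony-stimulating factors, Csf1 and Csf3 were higher in PgrKO over both states, and Csf2, at 0.308 to 2.31 FPKM, did not pass. Csf1 encodes the macrophage growth factor M-CSF. It was at 24.5 and 15.2 FPKM (Con) and 11.7 and 9.26 (Diff) in F/F, and 111 and 59.5 (Con) and 25.6 and 44.6 (Diff) in PgrKO. All PgrKO libraries were above all F/F libraries, although PgrKO_Diff 1 was just above F/F_Con 1. The difference was 1.81 (standard error 0.29, adjusted p = 0.00904) over both states, and 1.84 without both PgrKO replicate 2 libraries (adjusted p = 0.0253). In Diff organoids it was 1.61 (0.41, adjusted p = 0.0337), which did not pass without any 1 of the 4 F/F libraries or without PgrKO_Diff 2 (highest adjusted p = 0.156). Csf3, which encodes the granulocyte factor G-CSF, was at 33.3 and 36.0 FPKM (Con) and 65.0 and 15.3 (Diff) in F/F, and 69.9 and 74.6 (Con) and 120 and 113 (Diff) in PgrKO. The F/F_Diff libraries differed widely, and F/F_Diff 1 lay just below PgrKO_Con. The difference was 1.44 (standard error 0.42, adjusted p = 0.0468) and passed without F/F_Diff 1 or F/F_Diff 2 but in none of the 6 fits without another library (highest adjusted p = 0.121). Without both PgrKO replicate 2 libraries it was 1.43 (adjusted p = 0.192).

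In the NF-κB group, Nfkbia, Icam1 and Tlr2 were higher in PgrKO over both states, and Nfkbia, Icam1, Tlr2, Nfkb2 and Relb in Diff organoids. Tlr2 encodes a Toll-like receptor for bacterial lipoproteins. It was at 2.58 and 1.91 FPKM (Con) and 1.52 and 0.593 (Diff) in F/F, and 8.6 and 12.4 (Con) and 8.48 and 16.1 (Diff) in PgrKO. The groups were well apart, and replicate 2 was the higher PgrKO library. The difference was 2.24 (standard error 0.26, adjusted p = 0.00506) over both states, 2.67 (0.37, adjusted p = 0.00545) in Diff organoids, and 1.91 over both states without the PgrKO replicate 2 libraries (adjusted p = 0.0257). Nfkbia, the gene of the inhibitor IκBα and itself a target of NF-κB, was at 66.0 and 72.5 FPKM (Con) and 97.8 and 79.5 (Diff) in F/F, and 145 and 108 (Con) and 145 and 138 (Diff) in PgrKO. The groups did not overlap, though the difference was small, at 0.76 (standard error 0.14, adjusted p = 0.0126) over both states. In Diff organoids it was 0.68 (0.19, adjusted p = 0.0479) and passed only without PgrKO_Con 1 or PgrKO_Con 2 among the 8 fits without 1 library (highest adjusted p = 0.202).

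Icam1, which encodes an adhesion molecule for leukocytes, was at 18 and 16.5 FPKM (Con) and 6.56 and 2.39 (Diff) in F/F, and 16.0 and 23.2 (Con) and 15.9 and 21.9 (Diff) in PgrKO. The Con groups overlapped and the Diff groups did not. The Diff difference was 1.96 (standard error 0.40, adjusted p = 0.0172), and it did not pass without F/F_Diff 2 or PgrKO_Diff 2 (highest adjusted p = 0.0784). The Diff and Con differences were not shown to differ from each other (1.81, 0.56, adjusted p = 0.131). The difference over both states (1.05, 0.28, adjusted p = 0.037) passed in only 1 of the 8 fits without 1 library, the one without F/F_Diff 1 (highest adjusted p = 0.111). Nfkb2 and Relb encode the subunits of the non-canonical pathway. Nfkb2 was at 12.6 and 7.96 FPKM in F/F_Diff and 19.2 and 28.2 in PgrKO_Diff, a difference of 1.14 (standard error 0.29, adjusted p = 0.0347), with 14.3 and 15.1 in F/F_Con and 14.1 and 20.6 in PgrKO_Con. Relb was at 4.73 and 2.55 FPKM in F/F_Diff and 9.08 and 14.8 in PgrKO_Diff, a difference of 1.48 (0.36, adjusted p = 0.0288), with 7.69 and 8.75 in F/F_Con and 6.13 and 10.5 in PgrKO_Con. Both sat lowest in F/F_Diff 2, and neither passed without F/F_Con 1, F/F_Con 2, F/F_Diff 2 or PgrKO_Diff 2 (highest adjusted p = 0.159 and 0.14). Nfkb1, at 6.91 to 12.3 FPKM, Tnfaip3, the gene of the inhibitor A20, at 1.95 to 10.3, and the TNF-induced gene Tnfaip2 did not pass. Tnfaip2 was at 110 and 117 FPKM (Con) and 63.5 and 12.8 (Diff) in F/F, and 88.4 and 211 (Con) and 88.8 and 141 (Diff) in PgrKO, and the genotypes overlapped in Con organoids. Exons of Cxcl10, Cxcl16, Il1a, Tnfaip2, Nfkb2, Icam1 and Csf2 share 5.91% to 18.3% of their bases with genes on the opposite strand, by single overlapping gene, and whether counting used strand is not stated.

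Promoters of the list were searched for letters that NF-κB is known to bind. RefSeq promoters (GRCm38.p6, 250 bases before to 50 after the start) were found for 29 of the 41 genes. GGGNNTTTCC, on either strand, was in the promoters of 8 of these genes (27.6%): Cxcl1, Cxcl2, Ccl20, Il6, Tnfaip3, Nfkbia, Nfkb2 and Csf1. It was in the promoters of 1.9% of all 27025 genes and in 1.63% of all 32851 promoters, since some genes have several. The broader NF-κB consensus, which overlaps it, was in those of 13 genes (44.8%), against 9.55% of all genes and 8.46% of all promoters, and added Cxcl10, Tnfaip2, Ptx3, Lif and Tlr2. The list holds targets of NF-κB by choice, so a share above that of all genes is no finding about it. Not every match to GGGNNTTTCC meets the broader consensus. A match is a description of the sequence only, and 300 bases leave out distant elements. Promoters of 6 genes are shown, with the matches to GGGNNTTTCC or its reverse complement in capitals, since these genes gave different results: Cxcl1, Ccl20, Nfkbia and Csf1 were higher over both states, Nfkb2 in Diff organoids and Cxcl2 in neither. Cxcl1 and Cxcl2 have a pair of matches each, and Nfkb2 is shown at 1 of its starts.
Cxcl1 (chr5:90890995-90891294, plus strand): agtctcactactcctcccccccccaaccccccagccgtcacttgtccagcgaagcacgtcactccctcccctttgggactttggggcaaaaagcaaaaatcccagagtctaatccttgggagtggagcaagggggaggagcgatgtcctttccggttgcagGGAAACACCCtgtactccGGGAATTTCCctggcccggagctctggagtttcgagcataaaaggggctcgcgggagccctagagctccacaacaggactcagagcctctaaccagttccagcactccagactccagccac
Cxcl2 (chr5:90903649-90903948, plus strand): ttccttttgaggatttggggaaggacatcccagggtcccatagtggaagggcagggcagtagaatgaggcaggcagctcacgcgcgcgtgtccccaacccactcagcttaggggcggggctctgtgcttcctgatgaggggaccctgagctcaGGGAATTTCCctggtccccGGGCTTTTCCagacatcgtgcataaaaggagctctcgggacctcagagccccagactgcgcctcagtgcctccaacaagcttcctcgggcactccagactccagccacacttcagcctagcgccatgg
Ccl20 (chr1:83116516-83116815, plus strand): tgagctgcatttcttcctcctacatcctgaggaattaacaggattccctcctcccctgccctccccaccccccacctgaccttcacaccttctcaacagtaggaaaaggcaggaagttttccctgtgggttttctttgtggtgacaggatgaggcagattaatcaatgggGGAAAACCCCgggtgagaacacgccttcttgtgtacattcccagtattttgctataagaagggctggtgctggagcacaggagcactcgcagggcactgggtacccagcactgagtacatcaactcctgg
Csf1 (chr3:107760420-107760719, minus strand): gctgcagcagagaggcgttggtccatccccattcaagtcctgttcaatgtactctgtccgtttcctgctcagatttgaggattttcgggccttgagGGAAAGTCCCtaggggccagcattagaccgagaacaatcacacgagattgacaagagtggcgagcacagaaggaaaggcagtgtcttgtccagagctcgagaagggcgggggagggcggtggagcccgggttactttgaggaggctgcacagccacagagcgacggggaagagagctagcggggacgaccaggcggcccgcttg
Nfkbia (chr12:55492598-55492897, minus strand): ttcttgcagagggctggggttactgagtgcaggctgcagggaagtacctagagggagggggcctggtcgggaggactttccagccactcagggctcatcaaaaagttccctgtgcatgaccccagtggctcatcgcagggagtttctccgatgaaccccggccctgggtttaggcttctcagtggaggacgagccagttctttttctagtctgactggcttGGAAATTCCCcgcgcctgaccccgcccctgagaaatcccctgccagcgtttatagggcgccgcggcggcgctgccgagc
Nfkb2 (chr19:46304487-46304786, plus strand): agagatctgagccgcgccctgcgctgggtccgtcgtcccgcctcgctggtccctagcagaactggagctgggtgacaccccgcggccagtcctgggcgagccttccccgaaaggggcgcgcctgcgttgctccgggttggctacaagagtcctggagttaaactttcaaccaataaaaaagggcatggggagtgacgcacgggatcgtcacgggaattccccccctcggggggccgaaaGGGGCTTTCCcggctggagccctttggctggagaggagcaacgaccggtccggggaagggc
Of the other 2 genes with a match, Tnfaip3 did not pass and Il6 had at most 8 reads. Saa3, Pigr, Cxcl15, Tnf and Il33 had neither pattern in these windows.

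The genes of the list, like all genes, differed in which PgrKO replicate was higher. On the log2(FPKM + 1) scale, 15 of the 35 genes (42.9%) were higher in replicate 2 than in replicate 1 in both Con and Diff organoids. Of all genes, 32.1% were. Lower in both were 11 (31.4%), against 35.1% of all genes, so such a split is not particular to the list. In F/F organoids, replicate 2 was higher in both states for 2 of the 35 genes, against 23.6% of all genes, and lower for 14, against 22.1%. The 15 included Ccl7 (1.99 in Con and 1.43 in Diff), Cxcl5 (1.68 and 1.03), Cxcl1 (1.47 and 1.42), Ccl2 (1.38 and 1.09), Cxcl2 (1.34 and 1.33), Saa3 (1.16 and 1.22) and Cxcl16 (1.06 and 1.06), as well as Relb, Nfkb2, Icam1 and Tlr2. Macrophage genes were higher in the same libraries, by 2.49 and 3.47 for Lyz2, by 3.63 and 5.97 for Adgre1 and by 4.01 and 4.0 for C1qa. The fibroblast genes Dcn (1.17 and 2.14) and Col1a1 (0.10 and 1.82) were higher there as well. In replicates 1 and 2, the fibroblast markers summed to 180 and 164 FPKM in PgrKO_Con and to 110 and 391 in PgrKO_Diff. The 11 that were lower in replicate 2 included Ccl28 (-0.54 and -1.68), Cxcl15 (-0.32 and -1.46), Cfb (-0.44 and -0.98) and Pigr (-0.22 and -0.79), while the epithelial gene Epcam differed by -0.38 and -0.49. Csf1 was lower in replicate 2 in Con organoids (-0.89) and higher in Diff organoids (0.78). These differences compare single libraries and have no test, and the part of macrophages, fibroblasts or other cells in the first group was not tested.

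**Figure D5:**
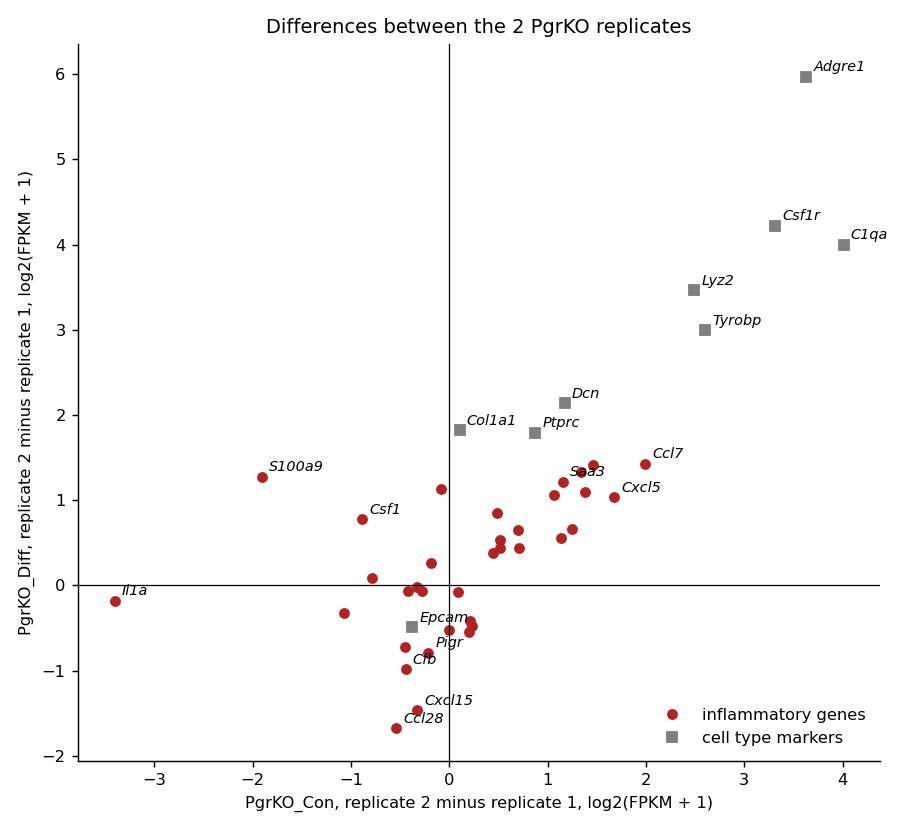
Replicate 2 minus replicate 1 of PgrKO on the log2(FPKM + 1) scale, in Con (x axis) and Diff (y axis) organoids. Red points are the 35 inflammatory genes and grey squares 9 cell type markers. Points at the upper right, such as Ccl7 (1.99 and 1.43), were higher in replicate 2 in both states, and those at the lower left, such as Ccl28 (-0.54 and -1.68), were lower.

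The next question was how E2 and DBZ bore on these genes in F/F organoids. In F/F_Diff against F/F_Con, Hp was higher and Icam1 and Lif were lower, so 1 and 2 of the 35 genes, against 12.4% of all genes called higher and 6.89% lower. The median difference of the 35 was -0.51, with 6 above 0, and that of all genes was -0.02, with 47.6% above 0. Hp rose from 191 and 267 FPKM in F/F_Con to 1426 and 2411 in F/F_Diff (3.03, standard error 0.45, adjusted p = 0.012). Lif fell from 12.4 and 10.9 to 4.07 and 2.18 (-1.65, 0.24, adjusted p = 0.0118), and Icam1 fell from 18 and 16.5 to 6.56 and 2.39 (-1.85, 0.40, adjusted p = 0.0274). For all 3 genes the groups did not overlap. None of the 3 passed without F/F_Con 1, F/F_Con 2 or F/F_Diff 2 (highest adjusted p = 0.0791, 0.0682 and 0.12), and 8 genes were called without F/F_Diff 1. Of all genes, 3055 were called with all libraries, 1250 without F/F_Con 1, 1536 without F/F_Diff 1 and 0 without F/F_Con 2 or F/F_Diff 2. Without F/F_Diff 2 the median of the 35 was -0.19, with 13 above 0. Tnf was at 12.2 and 11.5 FPKM against 7.01 and 3.80 and missed the threshold (-1.05, 0.29, adjusted p = 0.0521).

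In PgrKO organoids the same treatment gave no calls. None of the 35 genes passed in PgrKO_Diff against PgrKO_Con, nor did any other gene (0% of all genes in both directions), with 2 of the 35 and 1179 of all genes at an unadjusted p under 0.05 by limma and no gene of the list called by voom. The median of the 35 was 0.05. Hp was already at 1060 and 613 FPKM in PgrKO_Con and was at 1261 and 1338 in PgrKO_Diff (0.69, standard error 0.45, adjusted p = 0.775). Lif was at 19.5 and 15.3 FPKM in PgrKO_Con and 14.9 and 14.7 in PgrKO_Diff (-0.21, 0.24, adjusted p = 0.873). The test of the difference between the responses of PgrKO and F/F called none of the 35 genes, against 0.499% of all genes called higher and 3.91% lower. It gave 6 of the 35 and 3570 of all genes an unadjusted p under 0.05, and voom called none. The nearest were Lif (1.44, 0.34, adjusted p = 0.0707) and Hp (-2.34, 0.63, adjusted p = 0.0933), so a difference between the responses was not shown for any of these genes.

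AdKO organoids gave a view of the list with macrophage and leukocyte markers near the F/F level. The 12 markers summed to 30.9 and 17.5 FPKM in AdKO_Con and AdKO_Diff, against 19.6 to 35.8 in F/F. Of the 12, 5 were at 0 in each AdKO library, among them Adgre1, C1qa and Tyrobp, a gene of myeloid signaling. In AdKO_Con, however, Csf1r, Ptprc and Mrc1 were above every F/F library, at 1.93, 0.167 and 0.143 FPKM. With 1 library against 2 F/F libraries, which are also the controls of the PgrKO comparisons, the lone library was assumed to vary like the others. In AdKO_Diff against F/F_Diff, Cxcl15, Lif and Tlr2 were higher and none lower, against 1.73% of all genes called higher and 4.43% lower. Cxcl15 was at 61.5 FPKM against 7.17 and 8.67 (2.81, standard error 0.55, adjusted p = 0.0427). Lif was at 22.6 FPKM against 4.07 and 2.18 (2.56, 0.30, adjusted p = 0.0271), and Tlr2 at 14.0 against 1.52 and 0.593 (2.91, 0.45, adjusted p = 0.0308). None of the 3 passed without any 1 of the 4 F/F libraries, and Cxcl15 also not without PgrKO_Con 1 or PgrKO_Con 2. The F/F_Con and PgrKO_Con libraries are in neither group, so leaving them out does not change the differences themselves. Of all genes, 975 were called with all libraries, 56 and 63 without F/F_Con 1 and F/F_Con 2, and 0 without F/F_Diff 1 or F/F_Diff 2. None of the 3 passed with a pseudocount of 0.1 or by voom. Csf1 was at 55.5 FPKM against 11.7 and 9.26 (2.31, 0.50, adjusted p = 0.0518) and Tnf at 15.9 against 7.01 and 3.80 (1.45, 0.35, adjusted p = 0.0651), and both missed the threshold.

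In AdKO_Con against F/F_Con no gene of the list passed, against 0.0253% of all genes called higher and 0.0253% lower. By limma 9 of the 35 and 2572 of all genes had an unadjusted p under 0.05, and voom called none. The median of the 35 was 0.71, with 27 above 0, and in the Diff comparison 0.56, with 29 above 0, while the medians of all genes were within 0.01 of 0. Both AdKO libraries were above all 4 F/F libraries for 12 of the 35 genes, against 16.8% of all genes. These were Cxcl1, Cxcl15, Ccl2, Ccl5, Ccl20, Il1a, Tnf, Nfkbia, Nfkb2, Csf1, Lif and Tlr2. Ccl5 reached the filter only in AdKO_Con (1.12 FPKM), so the group that is high is also the reason for testing it. The medians, the counts above 0 and the 9 genes with an unadjusted p under 0.05 by limma include Ccl5 too. Both AdKO libraries were below all 4 for Il23a alone, against 14.4%. Cxcl1 was at 15.8 FPKM in both AdKO libraries, Cxcl2 at 8.40 in AdKO_Con and 4.61 in AdKO_Diff, Cxcl10 at 0.587 and 0.187, Il1a at 21.7 and 11.9, and Cfb at 2.02 and 0.448. Icam1 was at 9.23 and 4.07 FPKM, Nfkb2 at 15.9 and 15.2, Relb at 5.72 and 5.48, and Ccl7 at 4.03 and 3.48. Of the genes called in the Diff comparison or near it, Cxcl15 was at 44.3 FPKM in AdKO_Con, Lif at 34.6, Tlr2 at 6.83 and Tnf at 22.7. All 4 lay above every F/F library in AdKO_Con as well. Ccl20 was at 125 FPKM in AdKO_Con and 62.6 in AdKO_Diff, Cxcl5 at 1031 and 260, Pigr at 213 and 76.2, Csf1 at 63.0 and 55.5, Csf3 at 99.6 and 58.4, Ccl2 at 77.2 and 51.8, Nfkbia at 150 and 107, and Tnfaip2 at 171 and 53.5. Saa3 was at 12.6 and 7.48 FPKM, within the F/F range and far below every PgrKO library, and Il33 was at 49.3 and 28.7, also within the F/F range. Cxcl17 was at 372 and 296, Ccl28 at 39.3 and 25.4, and Cxcl16 at 46.4 and 34.2. Between AdKO_Con and AdKO_Diff, with 1 library each and no replicate check, none of the 35 genes was higher by more than 1 on the log2 scale in AdKO_Diff, against 2.11% of all genes. Cxcl5 (-1.98), Tnfaip2 (-1.66), Pigr (-1.47), Cfb (-1.06) and Icam1 (-1.01) were lower by more than 1, against 2.53% of all genes. Hp, in contrast to F/F_Con, was already at 1576 FPKM in AdKO_Con and was at 2161 in AdKO_Diff.

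Receptors, adaptors, kinases, inhibitors and transcription factors of these pathways, with a few secreted proteins such as C3, Lbp and Il1rn, were examined as a second list of 51 genes, of which 49 were tested. Over both states, 21 were higher and 3 lower in PgrKO, against 13.7% and 16% of all genes, with a median difference of 0.50 against 0.01 for all genes. Calls over all genes fell in every fit without F/F or PgrKO libraries. A fall in this list can therefore not be told apart from one over all genes. Without 1 library, 11 to 22 were higher and 1 or 2 lower, and without both PgrKO replicate 2 libraries 14 and 2. The smallest p-values were those of Myd88, the adaptor of Toll-like and IL-1 receptors (0.84, adjusted p = 0.00424), Tlr4, the receptor of lipopolysaccharide (0.85, adjusted p = 0.00504), Il6st, which encodes the shared receptor gp130 of the IL-6 family (1.34, adjusted p = 0.00523), and Il17ra, an IL-17 receptor subunit (0.73, adjusted p = 0.00681). These 4 passed in all 8 fits without 1 library (highest adjusted p = 0.0295). Myd88 was at 6.13 to 10.4 FPKM in F/F and 14.5 to 14.8 in PgrKO, so that its PgrKO libraries were close to each other. Il6st was at 37.4 and 32.9 FPKM (Con) and 62.7 and 63.1 (Diff) in F/F, and 106 and 78.0 (Con) and 190 and 133 (Diff) in PgrKO, and 107 and 130 in AdKO_Con and AdKO_Diff. In Diff organoids 23 were higher and 4 lower, against 11.7% and 15.4% of all genes, with a median of 0.71 against 0.07. Here too, calls over all genes fell in every such fit, with the same limit. Without 1 library, 6 to 19 were higher and 0 to 3 lower, with the fewest without F/F_Diff 2 (6 and 0), and without both PgrKO replicate 2 libraries there were 10 and 0. The smallest p-values were those of Myd88 (1.12, adjusted p = 0.00306), Stat3, the transcription factor downstream of gp130 (0.80, adjusted p = 0.00479), Osmr, the oncostatin M receptor (1.52, adjusted p = 0.00598), and Tlr4 (0.93, adjusted p = 0.00658). Each of these was also called in all 8 fits without 1 library (highest adjusted p = 0.0408).

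In F/F_Diff against F/F_Con, 3 of these 49 genes were higher and 8 lower, against 12.4% and 6.89% of all genes, with a median of -0.35. Without F/F_Con 2 or F/F_Diff 2 none was called, nor was any of all genes tested, so no call named here held without them. The smallest p-values were those of Il6ra, the IL-6 receptor, which was higher (1.43, adjusted p = 0.0105), Cebpd, which encodes a C/EBP transcription factor of the acute phase and was lower (-2.09, adjusted p = 0.0115), Chuk, the kinase IKKα, which was higher (0.98, adjusted p = 0.0123), and Cebpb, another C/EBP factor, which was lower (-1.58, adjusted p = 0.0138). Cebpd was at 31.7 and 36.4 FPKM in F/F_Con and 9.75 and 5.32 in F/F_Diff, and at 40.8 and 38.7 in PgrKO_Con and 38.4 and 25.5 in PgrKO_Diff. In AdKO_Diff against F/F_Diff only Osmr passed (1.37, adjusted p = 0.0425), in 2 of the 8 fits without 1 library (highest adjusted p = 0.142). None of the 49 passed in the other comparisons by limma.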

How the data were processed

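The authors deposited 1 table of FPKM values, with 1 column for each of the 10 libraries. The submitters' processing notes name HISAT2, edgeR and mm10 without versions, whereas the methods of the study name Tophat2 and RPKM, so the aligner is uncertain, and whether counting used strand was not given in the sources used here. Whole reads were recovered from the FPKM values within 0.01 read for at least 99.99% of values. The library size behind the values was 15926604 in PgrKO_Diff 1, with 17331800 reads on placed genes. In F/F_Con 1 it was 17898399, with 16818787 reads. The size was therefore not a plain count of these reads, and how it was set is not stated.

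The genes tested had a group mean of 1 FPKM or more in some group. They were compared on log2(FPKM + 1) with limma 3.58.1 in R 4.3.3 (trend, 2-sided, 6 group means over 10 libraries), with Benjamini-Hochberg adjustment over all 15817 genes and a threshold of 0.05. Alternatives changed the pseudocount (0.1), the filter, the scaling, the libraries, the replicate block and the test (voom). AdKO_Con and AdKO_Diff were set side by side only.

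Values per library are given for genes of the list called in at least 1 comparison and for genes with a group mean of at least 20 FPKM. They are also given for Tnf, Il6, Ccl2, Csf1 and Cxcl15, which the study measured by qPCR in whole oviducts, not in organoids. Of the second list, the 4 called genes with the smallest p are named in each comparison. The 41 genes, the second list and the markers were chosen with earlier results of these data known. Plots were drawn with matplotlib 3.10.9, and tables were handled in Python 3.11.15 (pandas 2.3.3).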

Additional observations from a re-analysis of the deposited data

How the results depend on the processing

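The counts and named genes were recomputed under 20 settings, 4 of them chosen after the data were seen (voom, leaving out PgrKO_Con 2 and PgrKO_Diff 2, the crossed replicate numbers and the block within genotype). Of 815 values of called genes under an alternative, 633 passed the threshold, 182 did not and 0 changed direction, and 126 of 158 counts were within 1.5 times the main count. The causes of the changes in the counts below were not tested. Where calls over all genes are not given beside a count, a change in the list cannot be told apart from a change over all genes.

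Leaving out 1 library gave 0 to 8 genes in F/F_Diff against F/F_Con (3 with all libraries), 0 to 2 in PgrKO_Con against F/F_Con (0), 7 to 17 in PgrKO_Diff against F/F_Diff (16), 10 to 18 in PgrKO against F/F over both states (19) and 0 to 3 in AdKO_Diff against F/F_Diff (3). With no filter, 10 genes were called in PgrKO_Diff against F/F_Diff and 11 over both states. With only the libraries compared, 8 were called in PgrKO_Diff against F/F_Diff and 0 in AdKO_Diff against F/F_Diff. A pseudocount of 0.1 and voom each called 0 in AdKO_Diff against F/F_Diff, and over all genes voom called 4492 over both states and 1 in AdKO_Diff against F/F_Diff. Quantile normalization called 1 gene for the difference between the responses. Without PgrKO_Con 2 and PgrKO_Diff 2, the median difference of the 35 genes was 0.80 in PgrKO_Con against F/F_Con and 1.35 in PgrKO_Diff against F/F_Diff. None of the genes called in AdKO_Diff against F/F_Diff passed then.

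The replicate numbers do not pair all groups. Same-numbered libraries deviated together within PgrKO (a correlation of 0.53 across genes between PgrKO_Con and PgrKO_Diff), but not within F/F or between genotypes (-0.05, -0.17 and -0.15 for F/F_Con with F/F_Diff, F/F_Con with PgrKO_Con, and F/F_Diff with PgrKO_Diff). With the replicate block, 17 genes were called over both states, 15 in PgrKO_Diff against F/F_Diff and 0 in AdKO_Diff against F/F_Diff. With the block set within genotype, 22 were called over both states, 1 was called in PgrKO_Con against F/F_Con and 0 in AdKO_Diff against F/F_Diff. With the PgrKO numbers crossed, 6 were called in F/F_Diff against F/F_Con and 1 in PgrKO_Con against F/F_Con.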
